A study of Mus musculus with 36 samples.

Results

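Ribosome occupancy in untreated naive mouse embryonic stem (ES) cells was measured with 6 of the 36 libraries of the study, which fall into 3 polysome libraries (control_poly) and 3 total RNA libraries (control_total). The members are all genes with at least 10 reads summed over these 6 libraries, which were 15411 of the 25229 genes in the table. Per the methods, the cells were a single-cell-derived line grown in naive medium that expresses a GFP-LSM14A fusion and carries on both Ddx6 alleles an FKBP12-based degron tag with HA and mCherry. The control cells, labelled in the paper as untreated with DMSO, did not receive the dTAG compound that triggers degradation of DDX6. They were otherwise harvested like the treated cells, cycloheximide included. Each replicate was a separate culture, and from every cleared lysate a portion was set aside as total RNA before the remainder went onto a sucrose gradient. Polysome and total libraries thus come in pairs from the same lysates, but the sources do not say that the replicate numbers match the pairs. Fractions with ribosomes were pooled as the polysome sample, and the methods do not say whether fractions holding single ribosomes were part of that pool.

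Polysome profiling separates RNA by the weight of what is bound to it. An mRNA that carries ribosomes sediments deep into a sucrose gradient, whereas free RNA and small ribonucleoproteins stay near the top, and cycloheximide holds ribosomes on the message during lysis. The share of a gene's RNA in the ribosome fractions relative to total RNA is therefore used as a measure of how readily its mRNA is engaged in translation. Known control points include the 5′ terminal oligopyrimidine (TOP) tract of mRNAs for the translation machinery, upstream open reading frames, and the iron response element in ferritin mRNAs. Here ribosome occupancy is the log2 ratio of polysome to total RNA from edgeR, positive where a gene's share was higher in polysomes. It is given with a standard error (SE) derived from the edgeR test statistic, with 3 libraries in each group. The test shares information on spread across genes, so this SE is not the scatter of a single gene.

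The libraries held 13308776 to 27105743 reads. Replicates of a group were alike, with Spearman correlations of 0.9896 to 0.9971 across genes. Total RNA replicate 3 stood apart from the other total libraries: its deviation from them went with the GC content of the coding sequence (Spearman 0.649 across genes) and against coding length (−0.414). Its part in the results was not tested beyond leaving it out. All 8 markers of naive ES cells were at 10 counts-per-million (CPM) or more, with summed levels of 7456 to 7486 CPM in the polysome and 6187 to 6574 CPM in the total libraries. The 10 listed fibroblast feeder markers summed to 5.48 to 7.38 CPM, with Col3a1 and Lum at 0 in every library, and the 8 extraembryonic endoderm markers to 3.16 to 4.57 CPM. For the 10 primed cell markers the sums were 110 to 132 CPM in polysome and 170 to 173 CPM in total RNA. In such bulk RNA, fewer cells of a type and less RNA per cell cannot be told apart.

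The pool labelled polysome was not poorer in long noncoding RNA, which is mostly not translated. Of 698 long noncoding RNAs (lncRNAs) tested, 105 were higher in the polysome libraries (a smaller share than the 18.8% of all genes), 4 were lower (0.573%, beside 24.1%) and the median occupancy was 0.33, beside 0.02 over all genes. Among the 62 with at least 10 CPM, 33 were higher and 2 lower. Malat1, a nuclear RNA, measured 211, 219 and 232 CPM in the polysome and 186, 275 and 203 CPM in the total libraries. Its groups overlapped (log2 −0.0058 ± 0.11, adjusted p = 0.973). Of 123 short noncoding RNAs that work outside translation, only 3 were tested, and none of them reached 10 CPM. The 2 called lower were Rmrp, the RNA of RNase MRP (−3.15 ± 0.47, adjusted p = 4.03e-05), and Rpph1, the RNA of RNase P (−2.35 ± 0.44, adjusted p = 0.000357). The remaining member had −0.86 and was not called.

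Occupancy differed for 6610 of the 15411 genes, which is 42.9%. Of these, 2891 (18.8% of those tested) were higher and 3719 (24.1%) were lower in polysomes. The sizes were uneven: 954 genes (6.19%) were called and more than 2-fold lower, while 57 (0.370%) were called and more than 2-fold higher. Among the 9102 genes of at least 10 CPM, the 1st percentile lay at −1.89 and the 99th at 0.57. Values are relative shares, and the scaling moved the midpoint. When scaled to library totals alone, the median over all genes was 0.19 in place of 0.02, and 5167 genes were higher and 2751 lower. This shift of about 0.17 was upward, so a gene less than that below 0 changes sign with it. As values are relative, a gene as little above 0 has no firm direction either. Without total RNA replicate 3 the split was 3338 higher and 3872 lower, and with the replicate number as a block it was 2899 and 3682.

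The lowest genes were ranked among called genes of at least 10 CPM whose polysome and total values did not overlap. The 10 lowest of these had coding sequences of 2421 nt (Vcp) or longer. Uba1 (chromosome X, 20658302 to 20683179, GRCm38), the enzyme that activates ubiquitin, measured 102, 97.1 and 104 CPM in the polysome libraries and 677, 697 and 695 CPM in the total libraries. It was 6.83-fold lower in polysomes, with an occupancy of −2.77 ± 0.064 (adjusted p = 1.16e-13). Its 6 values form narrow, well separated groups.

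Cad (chromosome 5, 31054620 to 31078479), the enzyme of the first steps of pyrimidine synthesis, measured 91.7, 83.6 and 87.2 CPM against 553, 554 and 587 CPM in total RNA. Its occupancy was −2.69 ± 0.066 (adjusted p = 1.16e-13). Vcp (chromosome 4, 42979964 to 43000507), an ATPase that unfolds ubiquitinated proteins, measured 123, 121 and 125 CPM against 724, 757 and 706 CPM, an occupancy of −2.57 ± 0.063 (adjusted p = 1.16e-13). In both genes the highest polysome value was far below the lowest total value. Col4a1 (chromosome 8, 11198423 to 11312889), a chain of basement membrane collagen, had the lowest value among genes of at least 10 CPM at −2.87 ± 0.14 (adjusted p = 4.71e-11), from a low level of 2.12 to 2.81 CPM in polysomes and 16.8 to 19.7 CPM in total RNA. Its exons overlap those of Col4a2 on the opposite strand.

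The other 6 of the 10 lowest genes ranged from −2.67 to −2.46. They were Lamc1, a laminin chain (−2.67 ± 0.071), Col18a1, another basement membrane collagen (−2.65 ± 0.066), Snrnp200, the helicase that activates the spliceosome (−2.63 ± 0.070), Igf2r, a receptor that sorts lysosomal enzymes (−2.55 ± 0.078), Cltc, the clathrin heavy chain (−2.50 ± 0.091), and Copb2, a subunit of the COPI vesicle coat (−2.46 ± 0.068). The highest adjusted p among these 6 was 2.41e-12. In all 10 genes the polysome and total values did not overlap, because the choice of genes required it. Of all genes of at least 10 CPM, 69.0% met that condition.

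At the other end the differences were smaller. Selenot (chromosome 3, 58576636 to 58593544), a selenoprotein of the endoplasmic reticulum, measured 601, 621 and 604 CPM in polysomes and 394, 367 and 339 CPM in total RNA. It was 1.66-fold higher (log2 0.73 ± 0.066, adjusted p = 1.24e-07). As for the lowest genes, the highest were named only if the groups did not overlap. Snhg11, a noncoding host gene of small nucleolar RNAs, measured 48.8, 55.7 and 49.5 CPM against 30.1, 32.2 and 28.4 CPM (0.77 ± 0.078, adjusted p = 5.07e-07).

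Another 6 genes lay between 0.68 and 0.74, namely Smim11 (0.74 ± 0.12), Dynlt3, a dynein light chain (0.69 ± 0.094), Cmc1, which takes part in cytochrome c oxidase assembly (0.69 ± 0.10), the noncoding 1300002E11Rik (0.69 ± 0.14), Etfrf1 (0.69 ± 0.088) and Fmc1 (0.68 ± 0.11). The exons of 1300002E11Rik overlap Map3k13 on the same strand, and the counts of 1300002E11Rik and Etfrf1 may include shared reads. Rnaset2a (1.25 ± 0.15) and Gm21293 (0.72 ± 0.15) complete the 10 highest, and both are uncertain: Rnaset2a has a near-identical copy, Rnaset2b, and Gm21293 overlaps Gm6763 on the same strand. Gm21293 measured 49.2, 87.3 and 84.0 CPM in polysomes, and its occupancy in the DDX6-depleted cells was −0.21.

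**Figure D1:**
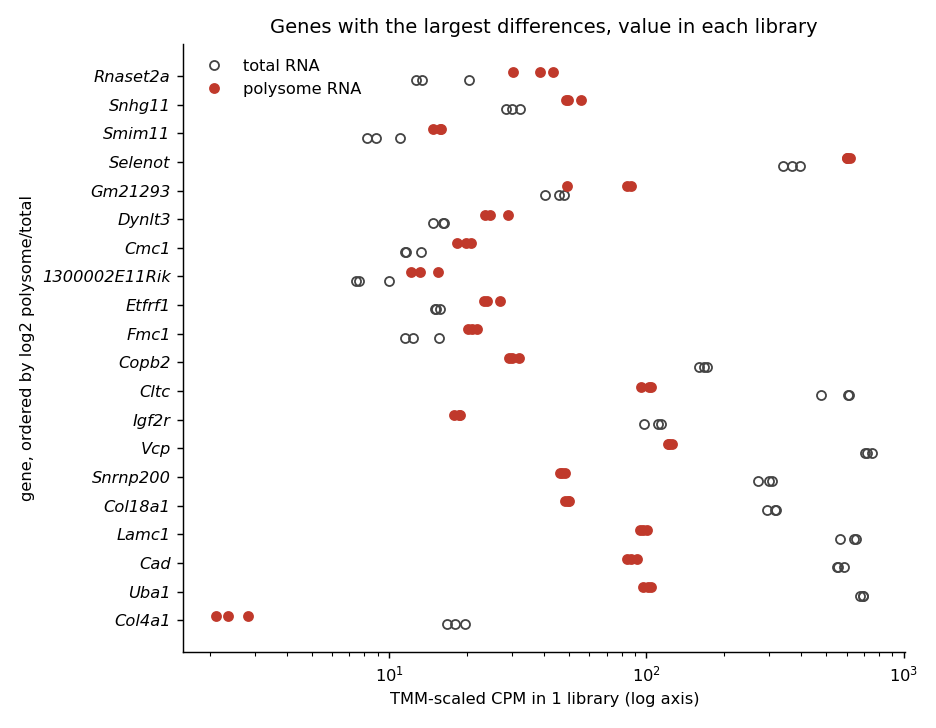
Level of the 10 genes with the lowest and the 10 with the highest ribosome occupancy in each control library, as CPM scaled by the trimmed mean of M-values (TMM) on a log axis. Both sets were chosen among called genes of at least 10 CPM whose groups did not overlap. Filled red points are the 3 polysome and open points the 3 total RNA libraries; the groups are 5.49-fold to 7.30-fold apart for the lowest genes but mostly under 1.7-fold apart for the highest.

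Coding length went with occupancy more closely than any other transcript feature measured. Spearman's rho between coding length and occupancy was −0.738 over 8894 coding genes with 10 CPM or more, and it ranged from −0.744 to −0.634 when a single polysome library was set against a single total library. It is a correlation across genes of the same 6 libraries, which are not independent replicates, and lengths are those of the longest coding transcript of each gene. In 5 equal bins of length, median occupancy went from 0.34 (coding length 114 to 756 nt) through 0.12, −0.06 and −0.27 to −0.63 (2580 to 23154 nt). In the shortest bin 78.5% of the genes were higher and 0.506% lower. In the longest bin 3.32% were higher and 77.1% lower. How fully the heaviest polysomes were recovered from the gradients was not measured, so occupancy here is the share of a gene's RNA in the pooled fractions, and no more. Scaled to library totals, the same 5 medians were 0.51, 0.29, 0.10, −0.10 and −0.46.

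**Figure D2:**
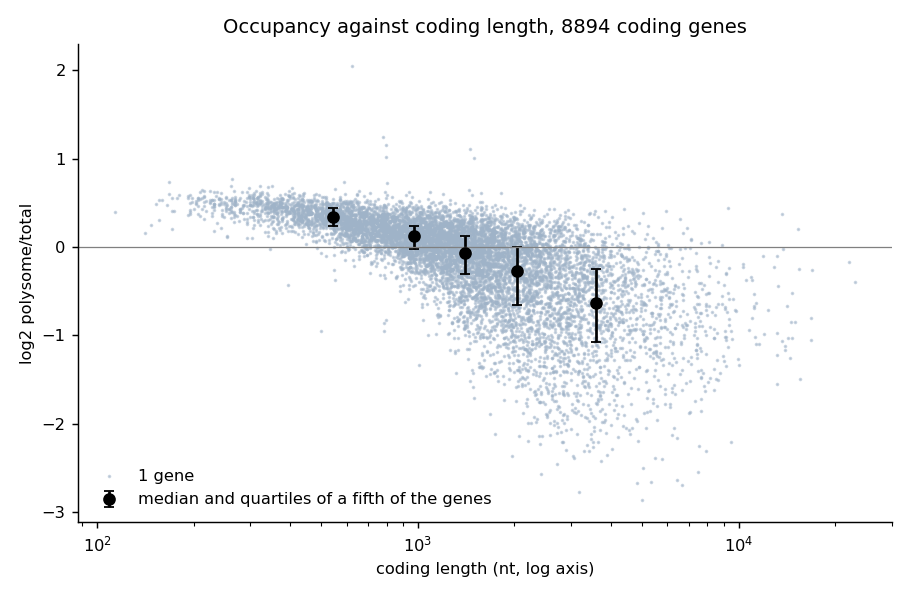
Ribosome occupancy (log2 polysome/total) against coding length in nt on a log axis for 8894 coding genes of at least 10 CPM. Each small point is a gene, and black points with bars are the medians and quartiles of 5 equal bins, which go from 0.34 to −0.63 while the spread widens.

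Length of the whole transcript, which includes the coding sequence, went with occupancy less closely than coding length (Spearman −0.464). Its bin medians went from 0.27 for the shortest to −0.35 for the longest transcripts. The remaining features had little relation with occupancy. Spearman correlations were −0.078 for the length of the 5′ UTR, −0.032 for the length of the 3′ UTR and 0.053 for the number of ATG triplets in the 5′ UTR. GC content gave 0.014 in the 5′ UTR, −0.028 in the coding sequence and −0.079 in the 3′ UTR. For GC of the coding sequence the sign depended on the libraries, from −0.259 to 0.110 between pairs of single libraries. This goes with the GC-related deviation of total RNA replicate 3, and its part was not tested.

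Among long genes, those that were abundant had the lowest occupancy. Level was taken from libraries outside the comparison, as the mean CPM per kb of transcript in total RNA of the DDX6-depleted cells, and genes were divided into 5 equal bins of level. In the longest length bin, median occupancy went from −0.43 in the lowest level bin (621 genes) through −0.57, −0.71 and −1.02 to −1.52 in the highest (123 genes). Of those 123 genes, 93.5% were lower in polysomes. In the shortest length bin the medians were 0.31 to 0.35 at every level. The Spearman correlation of occupancy with level was −0.386 within the longest and 0.024 within the shortest length bin.

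**Figure D3:**
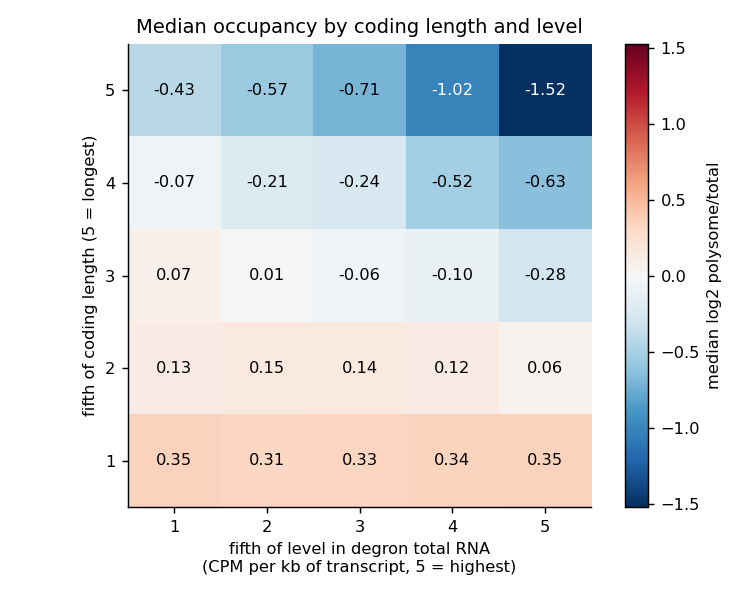
Median ribosome occupancy of coding genes in 5 bins of coding length (vertical, 5 is longest) and 5 bins of level per kb of transcript in the DDX6-depleted total RNA (horizontal, 5 is highest). Colour and printed values are the median log2 polysome/total, which spans 0.35 to −1.52.

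Some genes ran against the length trend. In the longest bin 59 of 1779 genes were higher, among them Prune2 (0.44 ± 0.099) and Phc3, a Polycomb protein (0.42 ± 0.084). In the shortest bin 9 of 1778 genes were lower: Alg13, Hist1h2ao, Ftl1, Cd81, Fth1, Bcap31, Cldn4, Tmbim6 and Ywhag. These genes were named after their values were seen. They include both ferritin chains, and Cd81, Bcap31, Cldn4 and Tmbim6 code for membrane proteins. Because of the trend, the gene groups that follow are given with their occupancy and with the difference from genes of like length, which is the occupancy minus the median of coding genes of at least 10 CPM in the same 1 of 20 length bins. Genes of like length were not matched for level, and among long genes occupancy fell with level. How far a group's difference goes with its level was not tested. Most list members had at least 10 CPM, a level at which 27.8% of all genes were higher and 35.0% lower.

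Cytosolic ribosomal proteins, which build the ribosome and whose mRNAs begin with a TOP tract, were either higher in polysomes or not called. All 80 were tested: 39 were higher and 0 lower, with a median of 0.19 and a range of −0.14 to 0.84. That count was sensitive: 73 were higher with library totals, 56 without total RNA replicate 3, and 23, 21 and 17 without polysome replicate 3, total replicate 1 and total replicate 2. The median was 0.12 without polysome replicate 3 and 0.27 without total replicate 3. With the replicate block 56 were higher and 1, Rack1, was lower. The median stood 0.15 below genes of like length, and 72 of 79 members lay below that level. Rpl30, a protein of the large subunit, measured 126, 131 and 145 CPM in polysomes and 88.5, 90.2 and 104 CPM in total RNA (0.51 ± 0.077, adjusted p = 4.51e-05), with no overlap. Rack1, a scaffold on the small subunit, measured 1873, 1878 and 2081 CPM against 1979, 2046 and 2396 CPM (−0.14 ± 0.076, adjusted p = 0.162), and Rplp0, of the ribosomal stalk, had a value of −0.073 ± 0.072 (adjusted p = 0.462). The groups of both overlapped.

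The TOP tract is a C at the start of the mRNA followed by a run of pyrimidines. The start windows below are for 6 of these genes, from RefSeq on GRCm38.p6, as 10 bases before and 20 bases from the annotated start. Capitals mark the pyrimidines from the first CTTTC or CTTTT near that start onwards. Pyrimidines directly before that match are in small letters, so the full run is longer than marked. The 6 genes were picked after the values were seen, from the lowest to the highest occupancy of the group. The highest, Rps27, lies at only 7.93 CPM and its polysome and total values overlap.
Rack1 (occupancy −0.14), chr11:48800350-48800379, plus strand: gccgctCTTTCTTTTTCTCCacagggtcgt
Rpl12 (−0.063), chr2:32961702-32961731, plus strand: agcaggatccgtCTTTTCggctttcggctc
Rpl35 (0.19), chr2:39005112-39005141, minus strand: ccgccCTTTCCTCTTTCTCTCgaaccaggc
Rplp2 (0.26), chr7:141447641-141447670, plus strand: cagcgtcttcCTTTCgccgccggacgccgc
Rpl38 (0.43), chr11:114668570-114668599, plus strand: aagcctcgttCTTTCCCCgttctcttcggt
Rps27 (0.84), chr3:90213629-90213658, minus strand: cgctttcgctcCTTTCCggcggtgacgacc
A run beginning CTTTC or CTTTT and starting within 5 bases before to 10 bases after the annotated start was present on the sense strand for 18 of the 59 ribosomal protein genes with a window (30.5%), and in 3.95% of all 32851 windows. Counted by gene, as for the ribosomal proteins, the sense share was 4.38% of 7400 tested genes of at least 10 CPM. On the opposite strand the share was 3.39% of the ribosomal protein genes, 3.28% of those tested genes and 3.72% of all windows. The 18 genes with the run had a median occupancy of 0.18 (7 higher, 0 lower) and the 41 without it one of 0.19 (22 higher, 0 lower). A match is a description of these letters, and annotated starts may lie some bases from the true one.

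Other parts of the translation machinery were spread over both directions. Of 43 initiation factors, 11 were higher (25.6%) and 15 lower (34.9%), close to the 27.8% and 35.0% of all genes of at least 10 CPM. Their median of −0.075 turned to 0.094 with library totals. Eif5b, the GTPase that joins the ribosomal subunits, measured 46.0, 47.1 and 51.2 CPM against 237, 222 and 205 CPM (−2.21 ± 0.073, adjusted p = 1.05e-12), and Eif3c, a core subunit of eIF3, had −2.04 ± 0.068 (adjusted p = 1.05e-12). Highest among those of at least 10 CPM were Eif1, which guards start codon choice (0.44 ± 0.064), and Eif4e, the cap-binding protein (0.44 ± 0.080, adjusted p = 0.000252). The members lay below genes of like length in 31 of 40 cases, by a median of 0.14.

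Among 18 elongation and termination factors, 4 were higher (22.2%) and 7 lower (38.9%), beside the same 27.8% and 35.0%. The median was −0.10, and 0.065 with library totals, which gave 6 of each. Gspt1, the release factor eRF3, was lowest at −1.04 ± 0.064 (adjusted p = 1.07e-09), and Eef1e1, a scaffold of tRNA synthetases, was highest at 0.43 ± 0.084 (adjusted p = 0.000557). Eef1a1, which delivers aminoacyl-tRNA and was the most abundant mRNA in every library, measured 9847, 10090 and 11187 CPM in polysomes and 12515, 12781 and 12071 CPM in total RNA. It was 1.20-fold lower (−0.26 ± 0.064, adjusted p = 0.00291), and was not called with library totals (−0.098) or upper-quartile scaling (−0.10). Of 20 TOP mRNAs other than ribosomal proteins, 2 were higher and 7 lower, with a median of −0.076 that turned to 0.091 with library totals, with 8 higher and 4 lower. Vim, an intermediate filament protein, was lowest there (−0.92 ± 0.060). Naca, a chaperone of nascent chains, was highest (0.32 ± 0.075). Its longest coding transcript, of 6564 nt, is a muscle form, so its length is not that of the usual mRNA.

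Genes for mitochondrial protein complexes were among the groups with the highest occupancy, at the level of other genes of their length. Of 80 mitochondrial ribosomal proteins, 55 were higher and 5 lower (median 0.31), and of 79 respiratory chain subunits, 63 were higher and 8 lower (median 0.42). Without polysome replicate 1 or 2 only 2 mitochondrial ribosomal proteins were lower, and without total replicate 2 only 3. Their medians differed by 0.0059 and 0.024 from genes of like length. Ndufa1, a small subunit of complex I, measured 50.3, 56.2 and 63.7 CPM against 35.6, 35.6 and 37.7 CPM (0.64 ± 0.083, adjusted p = 9.11e-06). The lowest members were the large catalytic subunits: Ndufs1 of complex I (−1.79 ± 0.083, adjusted p = 3.15e-11) and Sdha of complex II (−1.41 ± 0.066, adjusted p = 3.46e-11). For Ndufs1 the values were 41.3, 39.9 and 50.2 CPM against 157, 153 and 143 CPM, well apart. In the list of mitochondrial ribosomal proteins Mrps36 (0.61 ± 0.067) and Mrps33 (0.61 ± 0.092) were highest and Dap3 was lowest (−0.41 ± 0.063).

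Chaperones were lower in polysomes, and lower than genes of like length, although level was not matched. Of 20 cytosolic and mitochondrial chaperones, 17 were lower and 1 higher, with a median of −0.78. The median stood 0.63 below genes of like length, and 18 of 19 members lay below it. Hsp90aa1, an abundant ATP-driven chaperone, measured 1158, 1032 and 1340 CPM in polysomes and 5875, 5539 and 4802 CPM in total RNA. It was 4.59-fold lower (−2.20 ± 0.094, adjusted p = 1.38e-11). Hspa4, a nucleotide exchange factor, had −1.93 ± 0.072 (adjusted p = 3.41e-12), while the small co-chaperonin Hspe1 was the 1 higher member (0.53 ± 0.084, adjusted p = 7.71e-05).

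Genes for folding and translocation in the endoplasmic reticulum were split, with 15 of 36 higher and 15 lower (median 0.021). The chaperones Hspa5, known as BiP (−2.37 ± 0.079, adjusted p = 1.11e-12), and Hsp90b1, known as GRP94 (−2.23 ± 0.078, adjusted p = 1.74e-12), were lowest. Hspa5 measured 107, 103 and 122 CPM against 586, 606 and 521 CPM. Sec61g, a small subunit of the translocon (0.59 ± 0.088), and Ostc, of the oligosaccharyltransferase (0.53 ± 0.060), were highest. The 37 proteasome subunits tested had 6 higher and 13 lower members (median 0.074), and the higher count was 13 without total RNA replicate 3 but 2 without either of total replicates 1 and 2, and 3 without polysome replicate 3. Psmd1 (−1.88 ± 0.070) and Psmd2 (−1.28 ± 0.063), the large scaffolds of the regulatory particle, were lowest. Of the 35 subunits with a length, 30 lay below genes of like length.

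The extracellular matrix and its receptors had the lowest median among the lists of coding genes. Of 23 laminins, collagens, integrins and related genes, 20 were tested, of which 17 were lower and 0 higher, with a median of −1.71 and 13 of 15 members below genes of like length by a median of 1.13. Lamc1 measured 101, 97.2 and 94.8 CPM in polysomes and 641, 652 and 568 CPM in total RNA, with groups far apart. At the upper end stood Lama5, a very long laminin chain (−0.69 ± 0.077, adjusted p = 1.81e-06), and Itgb5, an integrin subunit whose groups overlapped (−0.023 ± 0.071, adjusted p = 0.834). The cholesterol pathway was also lower, with 18 of 27 genes lower and 2 higher (median −0.29), and 5 higher without total replicate 3. Insig1, which retains the sterol sensor in the endoplasmic reticulum, was the highest member (0.44 ± 0.063, adjusted p = 2.19e-05).

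mRNAs known for translational control through their leader were mixed. Of 20 mRNAs with upstream open reading frames, 9 were higher and 3 lower (median 0.18), and 5 were lower without total replicate 3. Atf4, the stress response factor whose upstream frames limit its translation in unstressed cells, measured 443, 448 and 447 CPM in polysomes and 348, 343 and 376 CPM in total RNA. It was 1.25-fold higher (0.33 ± 0.061, adjusted p = 0.000347). Ppp1r15a, which reverses the stress phosphorylation of eIF2, had a like value (0.34 ± 0.079, adjusted p = 0.00229), and Eprs, a long tRNA synthetase mRNA, was lowest (−2.07 ± 0.080, adjusted p = 4.56e-12).

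Ferritin chains, which store iron and whose mRNAs carry the iron response element, were lower in polysomes. Fth1 measured 388, 412 and 434 CPM against 485, 488 and 500 CPM (−0.26 ± 0.062, adjusted p = 0.00293), and was not called with library totals (−0.090). Ftl1 measured 3124, 3146 and 3353 CPM against 3930, 3987 and 4577 CPM (−0.38 ± 0.069, adjusted p = 0.000307). They stood 0.55 and 0.67 below genes of like length. Of 15 iron-related genes, 14 were tested, of which 8 were lower and 1 higher (median −0.32), and none was higher without total replicate 1 or 3 or any single polysome library. The iron-sensing aconitase Aco1 was lowest (−1.66 ± 0.077), and Slc11a2, an iron transporter, had 0.069 ± 0.073 (adjusted p = 0.488).

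Polyamine genes leaned the other way, with 6 of 14 tested higher and 1 lower (median 0.18), and 10 higher and 2 lower without total RNA replicate 3. Oaz1, an antizyme made by ribosomal frameshifting, measured 367, 356 and 397 CPM in polysomes and 236, 223 and 326 CPM in total RNA (0.51 ± 0.11, adjusted p = 0.000911). Odc1, the enzyme it inhibits, was 1.14-fold higher (0.19 ± 0.058, adjusted p = 0.0125), a call lost without total replicate 1 or 2. Amd1 and Amd2 share sequence and are uncertain: Amd2 had 0.52 ± 0.076, while Amd1 was at 0 in 3 of the 6 libraries. Of 18 selenoproteins tested, whose mRNAs read a stop codon as selenocysteine, 10 were higher and 2 lower (median 0.31), and 4 were lower with the replicate block. Selenof (0.52 ± 0.064) followed Selenot at the top, and Selenoi was lowest of those at 10 CPM or more (−0.58 ± 0.089, adjusted p = 5.64e-05).

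Pluripotency factors spread around a slightly negative median. All 22 were tested, of which 6 were higher and 11 lower, with a median of −0.16 that turned to 0.0038 with library totals, with 9 higher and 6 lower. Pou5f1 measured 1513, 1522 and 1634 CPM in polysomes and 1217, 1234 and 1460 CPM in total RNA. It was 1.19-fold higher (0.26 ± 0.074, adjusted p = 0.0102). Its partner Sox2 was lower, at 718, 690 and 687 CPM against 808, 808 and 853 CPM (−0.24 ± 0.060, adjusted p = 0.00414), as was Nanog, at 830, 825 and 821 CPM against 983, 968 and 955 CPM (−0.23 ± 0.058, adjusted p = 0.00385). None of the 3 sets of values overlapped. Sox2 (−0.069) and Nanog (−0.064) were not called with library totals, nor Pou5f1 without total replicate 1 (0.20) or 2 (0.22). Zfp42 did overlap (−0.095 ± 0.064, adjusted p = 0.261). The short Dppa5a (0.47 ± 0.074) and Dppa3 (0.43 ± 0.086) were highest, and Sall4 (−0.79 ± 0.074) and Klf5 (−0.56 ± 0.068) lowest.

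Genes of the rare state that resembles the embryo at the first cleavage had 1 higher and 11 lower of 21 tested (median −0.23), and 7 lower without total replicate 1. With library totals the median was −0.063, with 2 higher and 8 lower. Only 8 of the 21 genes were at 10 CPM or more. Zscan4f (−0.54 ± 0.080) and Zscan4c (−0.49 ± 0.073) were lowest of those at 10 CPM or more, and Zscan4 copies share reads. Of 9 primed markers tested, 3 were lower and 0 higher. Dnmt3b, a DNA methyltransferase, measured 19.8 to 20.6 CPM in polysomes and 53.0, 55.7 and 54.0 CPM in total RNA (−1.43 ± 0.069, adjusted p = 5.66e-11).

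Chromatin and transcription genes differed by family. Of 35 Polycomb and histone methylation genes, 21 were lower and 3 higher (median −0.47), at the level of genes of like length (difference 0.022). Kdm5b, an H3K4 demethylase, had −1.78 ± 0.068 (adjusted p = 3.73e-12) and Kdm1a, or LSD1, −1.67 ± 0.063 (adjusted p = 3.48e-12), whereas Mtf2 (0.24 ± 0.075) and Cbx7 (0.24 ± 0.071) were higher. Cbx7 lost its call without polysome replicate 1 or 2 or total replicate 2, and Mtf2 without polysome replicate 3. Numbered zinc finger genes, many of them repressors of the KRAB family, had 31 of 158 tested higher and 13 lower (median 0.12). With library totals 78 were higher and 6 lower (median 0.29), and without total replicate 3 the median was 0.064. For their length they were high, with 92 of 100 above genes of like length by a median of 0.27. Zfp932 measured 47.8, 49.0 and 56.3 CPM in polysomes and 40.8, 35.2 and 31.1 CPM in total RNA (0.51 ± 0.094, adjusted p = 0.000326), with no overlap. Of 28 cyclins, cell cycle kinases and their inhibitors, 6 were higher and 3 lower, with a median of −0.025 that turned to 0.14 with library totals, with 14 higher and 2 lower. Ccnb1, the mitotic cyclin, was lowest (−0.66 ± 0.067, adjusted p = 5.57e-07) and Ccnc highest (0.44 ± 0.081).

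Of 25 P-body and decapping factors, which repress or degrade mRNA outside polysomes, 9 were higher (36%) and 8 lower (32%). Over genes of at least 10 CPM the shares were 27.8% and 35.0%. The median of 0.0085 turned to −0.024 without polysome replicate 2 and −0.023 without total replicate 3. Ddx6 itself, which carries the degron tag in these cells, measured 149, 137 and 124 CPM in polysomes and 251, 240 and 222 CPM in total RNA, 1.74-fold lower in polysomes (−0.80 ± 0.074, adjusted p = 1.82e-07). Edc4, the decapping scaffold, was lowest (−1.89 ± 0.072) and the small ring proteins Lsm6 (0.61 ± 0.082) and Lsm5 (0.54 ± 0.11) highest. Of 26 let-7 targets tested, 6 were higher (23.1%) and 9 lower (34.6%), near those shares. Their median of −0.033 turned to 0.14 with library totals, where 10 were higher and 6 lower. Nras was highest (0.43 ± 0.061), and Igf2bp3 (−0.94 ± 0.071) and Dicer1 (−0.91 ± 0.070) lowest. The everyday reference genes Actb (−0.46 ± 0.079, adjusted p = 0.000158) and Gapdh (−0.44 ± 0.065, adjusted p = 3.39e-05) were both lower.

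Named noncoding RNAs varied. Of 15 nuclear or imprinted lncRNAs tested, 5 were higher and 0 lower (median 0.35). The median was 0.18, 0.21, 0.23 and 0.19 without polysome replicates 1 and 2 and total replicates 1 and 3, and 1 was lower without polysome replicate 2. Firre, a nuclear scaffold RNA, measured 147, 153 and 135 CPM in polysomes and 102, 102 and 96.5 CPM in total RNA (0.54 ± 0.066, adjusted p = 4.72e-06). Lncenc1, an ES cell lncRNA, measured 540, 546 and 523 CPM against 402, 388 and 368 CPM (0.47 ± 0.061, adjusted p = 8.36e-06). Neat1, the scaffold of paraspeckles, had overlapping groups (0.050 ± 0.094, adjusted p = 0.710). Of 21 small nucleolar RNA host genes, 6 were higher and 1, Dancr, was lower (−0.47 ± 0.12, adjusted p = 0.00331). The median was 0.12, and 3 were higher without polysome replicate 2 or 3 or total replicate 2. Of 57 replication-dependent histone genes tested, 2 were higher and 2 lower, and 2 were at 10 CPM or more. These were H2ac7 (−1.05 ± 0.17) and Hist1h2ao (−0.43 ± 0.13), whose near-identical copies make their counts uncertain. The call of Hist1h2ao was lost under 6 alternatives, DESeq2 among them.

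**Figure D4:**
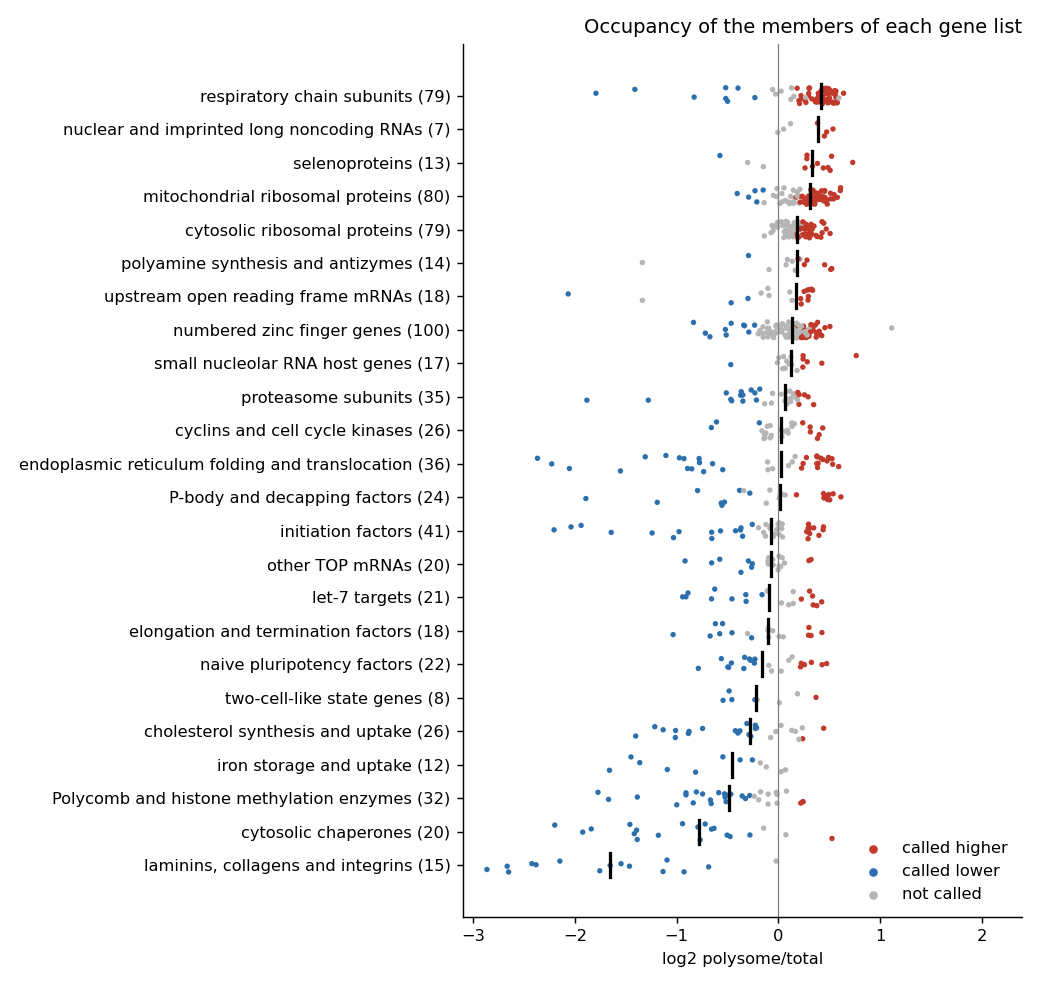
Ribosome occupancy (log2 polysome/total) of the members of 24 gene lists that have at least 7 members of 10 CPM or more, with that number in parentheses. Each point is a gene, red if called higher, blue if called lower and grey if not called, and black bars are list medians, which go from 0.42 for respiratory chain subunits to −1.66 for laminins, collagens and integrins.

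The pattern was next set beside the same measurement in cells treated for 6 h with the dTAG compound. It triggers degradation of DDX6, a helicase needed for P-bodies. These 6 libraries are not part of the control comparison. Of 15638 genes tested there, 50.9% were called: 3759 (24.0%) were higher in polysomes and 4193 (26.8%) lower. As a description, the Spearman coefficient between control and treated occupancy was 0.952 (9031 genes with 10 CPM or more in both), 0.743 over all 15228 genes tested in both. Of the 2891 genes higher in control polysomes, 2518 were called in the same direction after DDX6 removal, which is 87.1% of the control and 67.0% of the degron calls. Of the 3719 lower genes, 3493 were, which is 93.9% and 83.3%.

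No difference in occupancy between the conditions was called in the interaction test of edgeR over the 12 libraries (0 of 16345 genes, with 844 at an unadjusted p under 0.05). With the replicate block edgeR called 6, and DESeq2 without it called 4. The latter were Hspa8 (adjusted p = 0.000202), Vcp (adjusted p = 0.0301) and the predicted genes Gm14434 and Gm7978. Hspa8, a constitutive chaperone, had an occupancy of −0.79 in control and −1.19 in DDX6-depleted cells, and Vcp one of −2.57 and −2.87. Without total RNA replicate 3 of the control cells edgeR called 52 genes. Occupancy also went with coding length in the treated cells (Spearman −0.657), with bin medians from 0.29 to −0.56. Ribosomal proteins had medians of 0.19 in control and 0.17 in DDX6-depleted cells, chaperones −0.78 and −0.99, matrix genes −1.71 and −1.68, and zinc finger genes 0.12 and 0.25. Whether these medians differ was not tested. For P-body-enriched mRNAs taken as a set, the paper reports increased ribosome occupancy after DDX6 loss. It reports the same for such mRNAs of the state that resembles the embryo at the first cleavage. The interaction test here was made gene by gene, and these sets were not tested.

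**Figure D5:**
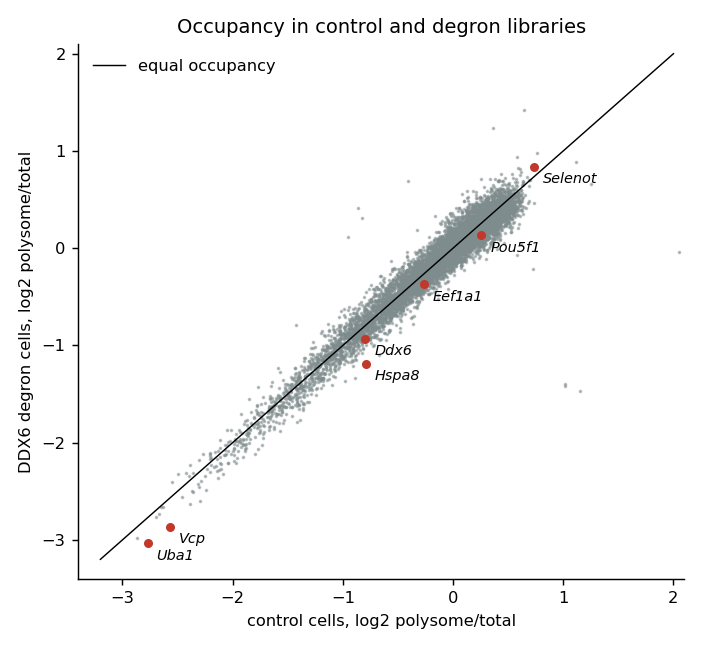
Ribosome occupancy in control cells (horizontal) and DDX6-depleted cells (vertical), both as log2 polysome/total, for 9100 genes of at least 10 CPM in the control libraries, with 2 more outside the axes. Red points are named genes and the line marks equal occupancy; most genes lie along it from Uba1 at −2.77 and −3.04 to Selenot at 0.73 and 0.83.

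P-body enrichment, measured in 4 other libraries of naive ES cells as sorted P-bodies against cytoplasm, had almost no relation with control occupancy. Those libraries were prepared with another kit than the polysome libraries. With translation efficiency from published ribosome profiling, a different measure, the paper reports a strong inverse correlation of P-body enrichment in naive ES cells. Over 8523 genes with 10 CPM or more in both sets, Spearman's rho was 0.029. Of 15630 genes tested for enrichment, 38.0% were called: 22.6% were enriched and 15.4% depleted. Among genes of at least 10 CPM in both sets of libraries, the 2684 enriched genes had a median occupancy of −0.0094 and the 1641 depleted genes one of −0.055. Higher occupancy was called for 26.3% of the enriched and 25.5% of the depleted genes, and lower occupancy for 35.5% and 41.0%. The enriched genes were longer, with a median coding length of 1647 nt against 1356 nt, and stood 0.075 above genes of like length where the depleted ones stood 0.062 below.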

How the data were processed

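The authors prepared strand-specific libraries, ran the nf-core/rnaseq pipeline on mm10 with UCSC refGene genes, and deposited expected counts per gene from salmon. Between 5.05% and 6.14% of values per control library were not whole, and all were rounded. The strand setting of the counting was not given in the sources used here. The authors' 10 tables of fold changes and p-values were not used.

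Genes with at least 10 reads over the 6 libraries were tested with edgeR 4.0.16 (R 4.3.3; TMM scaling, quasi-likelihood, two-sided) and called at a Benjamini-Hochberg adjusted p under 0.05. SEs were derived from the test statistic. CPM values are TMM-scaled, except the marker sums, which use library totals. P-body values came from the deposited gene counts of featureCounts. Coordinates and gene types are from RefSeq GRCm38.p6 (99.8% of tested genes matched), and lengths from the longest coding GENCODE M21 transcript. Genes were named if among the 10 most changed in each direction (at least 10 CPM, called, no overlap), the 2 highest or lowest in a list, or in a fixed set. Exceptions are marked, and some genes the rule names are not reported here. Members, lists and rules were chosen with earlier results of these data known. Alternatives were DESeq2 1.42.0, other scalings and filters, the replicate block, all 12 libraries, protein-coding genes only, and leaving out each library.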

Additional observations from a re-analysis of the deposited data

How the results depend on the processing

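The number of genes higher in polysomes was 5167 with library totals and 5090 with upper-quartile scaling, against 2891 with TMM. It was 2288 to 3338 when single libraries were left out, and the lower count was 3316 to 3872. All other alternatives kept both counts within 1.5 times. With the replicate number as a block, 2899 genes were higher and 3682 lower; correlations of the deviations of same-numbered samples were 0.040, 0.196 and −0.0024, and not every library correlated best with its own number. Each lysate gave a polysome and a total sample, but whether the numbers match these pairs is not stated. The correlation with coding length was −0.587 over all coding genes tested, −0.622 with the median over transcripts, and −0.767 to −0.710 with single libraries left out. The number of genes with a difference between degron and control was 4 with DESeq2, 6 with the replicate block, and 0 to 52 with single libraries left out. Of the 52, found without control total replicate 3, the cause was not tested. List medians turned for initiation factors (0.094 with library totals, 0.087 with upper quartile), elongation and termination factors (0.065 and 0.060), other TOP mRNAs (0.091 and 0.0851), cyclins (0.14 and 0.14), let-7 targets (0.14 and 0.13), pluripotency factors (0.0038 with library totals), replication-dependent histones (−0.080 without polysome replicate 3), P-body factors (−0.024 without polysome replicate 2, −0.023 without total replicate 3) and proteasome subunits (−2.814e-07 without polysome replicate 3, and up to 0.093 with other libraries left out). Amd1 moved from −1.34 to 9.93 without total replicate 2, the only total library with reads, and to −2.16 without polysome replicate 3. Of 127 named genes, 105 kept direction and call under every alternative. Of the lncRNAs and histones tested, 62 of 698 and 2 of 57 reached 10 CPM.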
